A study of Mus musculus with 3 samples.

Results

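The 10 genes described here encode enzymes that make, convert or inactivate steroids in mouse liver. They are the 6 measured copies of 3-beta-hydroxysteroid dehydrogenase (Hsd3b1 to Hsd3b6), the steroid hydroxylase and lyase Cyp17a1, the glucocorticoid-activating reductase Hsd11b1, the steroid 5-alpha-reductase Srd5a1 and the oestrogen sulfotransferase Sult1e1. They were found by gene symbol in the platform annotation. Each had 1 row in the table and a value on all 3 arrays, so 10 of the 10184 named genes measured on every array are described. The genes were proposed with their values in these data known, so they were chosen by their log2 ratios on these same arrays, and every count over the 10 genes is a description without a test.

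Liver RNA of female C57BL/6 mice was hybridised to 3 microarrays with 2 dyes. On each array the Cy5 channel held liver of untreated wild-type mice, the common reference. The Cy3 channel held liver of wild-type mice given LPS/GalN on the first array, of untreated TMX-/- mice on the second and of TMX-/- mice given LPS/GalN on the third. TMX, encoded by Tmx1, is a thioredoxin-related membrane protein of the endoplasmic reticulum. LPS/GalN was 3 ng of lipopolysaccharide, a bacterial cell wall component, with 10 mg of D-galactosamine, which sensitises hepatocytes to it. Both were injected into the peritoneum, and liver was collected 24 h later. The labels give neither age nor the deleted part of Tmx1, and leave unsaid how many mice gave the RNA of a channel. Each group had 1 array and no dyes were exchanged, so no difference was tested against the variation between mice and no p-value is given.

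Every value is a log2 ratio, centred on the median of the 10184 genes of its array, and a gene is called different at 2-fold, a log2 ratio of 1 in either direction. The ratio is read as Cy3 sample over Cy5 reference. This is the likely direction and not a stated one. It rests on Tmx1, which stood at -2.96 in untreated and -3.88 in treated TMX-null liver and at 0.59 in treated wild-type liver. With the opposite numerator, every higher would read lower. The only error at hand was the disagreement between probes of the same gene, in 81 genes that had 2 of them. As the SD of a single probe it came to 0.42 on the wild-type LPS/GalN array, 0.42 on the untreated TMX-null array and 0.76 on the TMX-null LPS/GalN array. Ratios say how a gene differs between livers and not how abundant it is, so levels of different genes were not compared. Signal values were not analysed here, and how bright each probe was is unknown.

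Steroid hormones are made mainly in the adrenal cortex and gonads, and the liver is the main site where they are converted and cleared. Hsd3b enzymes act on the 3-position of the steroid: some copies oxidise pregnenolone-type precursors to hormones such as progesterone, and others, known from male mouse liver, reduce active 3-keto steroids. Further enzymes reduce the ring, and sulfotransferases and glucuronosyltransferases attach water-soluble groups that end hormone action. Many of these hepatic genes are known to differ between the sexes of the mouse under the control of growth hormone and its mediator STAT5.

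The Hsd3b copies lay lower in treated TMX-null liver than in each of the other livers, while Sult1e1 lay far higher there. Among the copies, the smallest of these differences was that of Hsd3b5 from untreated TMX-null liver (-1.48, or 2.79-fold). Hsd3b3 stood 39.4-fold below treated wild-type liver and Sult1e1 39.0-fold above it, with log2 differences of -5.30 and 5.29. Among all 10184 genes these were the third lowest and the second highest. With the arrays scaled to the same spread, the differences were -3.65 for Hsd3b3 and 4.13 for Sult1e1, so their size depended on that choice. In the plot of the 10 genes on each array the untreated TMX-null values stay within 2-fold of the reference, and the treated TMX-null values lie outside it for all 10 genes.

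**Figure D1:**
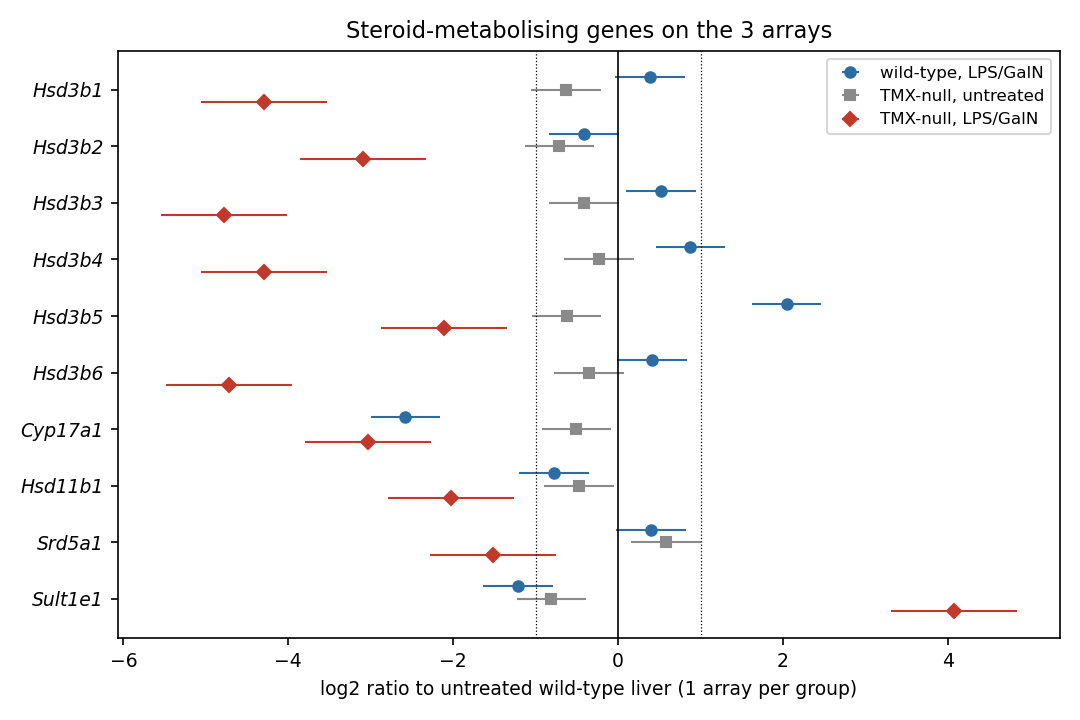
Log2 ratio to untreated wild-type liver (horizontal axis) of the 10 steroid-metabolising genes on the 3 arrays; circles are treated wild-type, squares untreated TMX-null and diamonds treated TMX-null liver, bars show the SD of a single probe (0.42, 0.42 and 0.76), and dotted lines mark 2-fold. In treated TMX-null liver 9 genes lie left of the lower line and Sult1e1 alone lies right of the upper one, at 4.07.

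Among the Hsd3b copies, Hsd3b1, the form known from adrenal gland and gonads, had log2 ratios of 0.39 in treated wild-type, -0.63 in untreated TMX-null and -4.30 in treated TMX-null liver. Hsd3b6, known from placenta and skin among other tissues, had 0.41, -0.35 and -4.72 in the same order. Hsd3b3, a form of liver and kidney, had 0.52, -0.41 and -4.78. In these 3 copies treated TMX-null liver lay far below the other livers, which stayed within 2-fold of the reference. The wild-type ratios of Hsd3b1 and Hsd3b6 were smaller than the SD of a single probe. Hsd3b4, a 3-keto steroid reductase, had 0.88, -0.23 and -4.30. Hsd3b1, Hsd3b3, Hsd3b4 and Hsd3b6 spanned 0.49 log2 in wild-type liver after LPS/GalN and 0.48 in TMX-null liver after it. Both spans are below the SD of the difference between 2 probes of the same gene (0.60 and 1.08), so these 4 copies could not be ordered.

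After LPS/GalN, Hsd3b5 departed from these 4 copies, and Hsd3b2 did so less clearly. Hsd3b5, the reductase known from adult male liver, stood at 2.04 in treated wild-type liver, 4.12-fold above untreated wild-type liver and the 11th highest of all genes there. It stood at -0.63 in untreated and at -2.11 in treated TMX-null liver, where it was the least low of the 6 copies. Its distance to the median of the other copies was 1.64 log2 in wild-type and 2.19 in TMX-null liver after LPS/GalN, against 0.60 and 1.08 for the SD of a difference between 2 probes. In untreated TMX-null liver the distance was -0.22, within that SD (0.60). Hsd3b5 was singled out as the extreme copy after its values were seen. All mice were female, and how bright the Hsd3b5 probe was is unknown. Hsd3b2, a further form of liver and kidney, stood at -0.41, -0.71 and -3.09. It was the only copy below 0 in treated wild-type liver, but by less than the SD of a single probe. The distance of Hsd3b2 to the median of the others was -0.94 in wild-type and 1.21 in TMX-null liver after LPS/GalN. The latter is little more than the SD of a difference between 2 probes (1.08).

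Each copy was measured by 1 probe. The copies are known to be close in sequence, and whether a probe also bound other copies was not tested, so the ratio of a single copy is uncertain. Counted as 1 feature by their median, the copies had log2 ratios of 0.47, -0.52 and -4.30 on the 3 arrays.

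In the RefSeq gene order of mouse assembly GRCm38.p6, the 6 copies lie in the same block in the order Hsd3b4, Hsd3b5, Hsd3b2, Hsd3b3, Hsd3b6 and Hsd3b1. The block holds 13 genes, of which 7 code for proteins and 6 are pseudogenes. The next gene after Hsd3b1 is Hao2, a peroxisomal hydroxy acid oxidase known to be higher in female liver. Hao2 stood at -1.42 in treated wild-type, -0.49 in untreated and -3.29 in treated TMX-null liver. In treated wild-type liver the ratio of Hsd3b1 (0.39) was smaller than the SD of a single probe, so a contrast of sign with Hao2 is uncertain. Hao2 lay low beside Hsd3b1 in treated TMX-null liver. Along the block, Hsd3b5 and the less clearly deviating Hsd3b2 are neighbours among the measured genes.

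**Figure D2:**
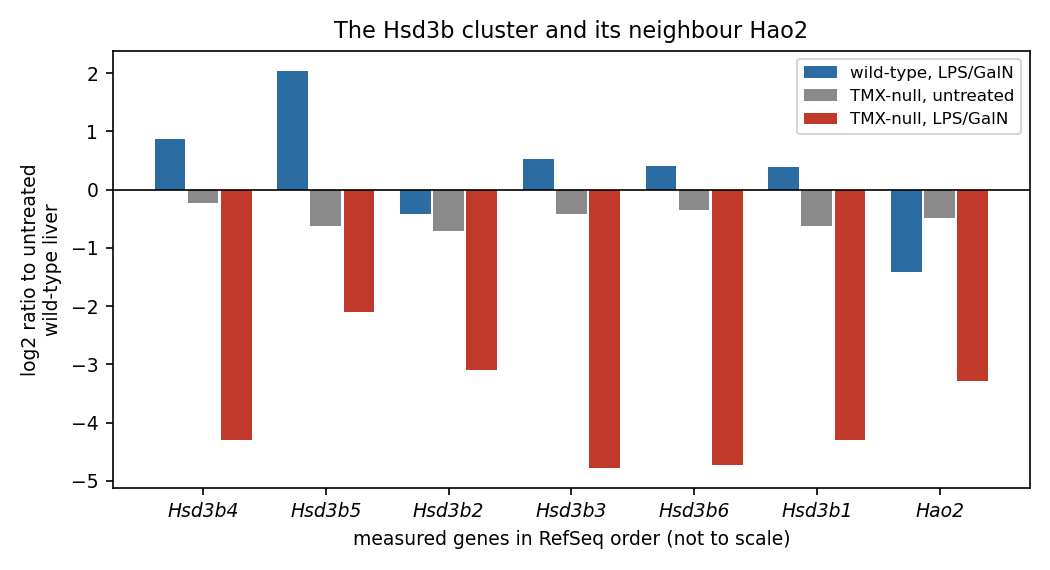
Log2 ratio to untreated wild-type liver (vertical axis) of the 6 measured Hsd3b copies and Hao2, in their RefSeq order and not to scale; bars give the single value on each array (blue treated wild-type, grey untreated TMX-null, red treated TMX-null). The red bars of Hsd3b5 (-2.11) and Hsd3b2 (-3.09) are the shortest of the 6 copies, and the blue bar is highest for Hsd3b5 (2.04).

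The stretches before the annotated starts were compared, because the copies lay low together in treated TMX-null liver. RefSeq windows of assembly GRCm38.p6 were at hand for 9 of the 10 genes, in 11 windows, and none was used for Cyp17a1. The 250 bases before the start were aligned locally for the 15 pairs of Hsd3b copies. A single pair, Hsd3b5 and Hsd3b3, aligned over more than 100 columns, with 153 identical of 203 (75.4%). The other Hsd3b pairs aligned over at most 52 columns, and the 21 pairs with at least 1 other gene over at most 39. The windows depend on the annotated starts, so similar stretches lying outside them could not be seen. The aligned pair is shown with the aligned stretch in capitals. Hsd3b5 lies at chr3:98645535-98645784 and the second annotated start of Hsd3b3 at chr3:98762411-98762660, both on the minus strand and written 5′ to 3′.
Hsd3b5: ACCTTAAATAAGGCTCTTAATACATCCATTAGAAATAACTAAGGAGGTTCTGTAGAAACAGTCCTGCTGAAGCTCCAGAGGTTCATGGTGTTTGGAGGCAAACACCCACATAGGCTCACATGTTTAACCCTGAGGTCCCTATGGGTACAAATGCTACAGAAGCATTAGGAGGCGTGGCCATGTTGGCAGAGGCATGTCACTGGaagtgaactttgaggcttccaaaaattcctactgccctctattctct
Hsd3b3: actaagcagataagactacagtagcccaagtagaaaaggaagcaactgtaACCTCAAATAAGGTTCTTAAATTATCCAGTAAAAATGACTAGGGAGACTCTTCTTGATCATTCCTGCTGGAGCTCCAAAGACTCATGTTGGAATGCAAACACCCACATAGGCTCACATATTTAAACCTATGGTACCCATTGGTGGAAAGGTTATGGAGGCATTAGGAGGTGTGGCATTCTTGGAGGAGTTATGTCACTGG
The copies of this pair differed in their ratios, at 2.04 against 0.52 in wild-type and -2.11 against -4.78 in TMX-null liver after LPS/GalN. Hsd3b6 and Hsd3b3, whose windows aligned over 23 columns, stood at -4.72 and -4.78 in the latter. These pairs were picked as examples, and the part of the windows in the ratios was not tested. Whether the probes of these copies bound each other's RNA was not tested either.

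A set of 5 motifs was searched on both strands of these windows. They were chosen after the windows had been searched with a larger number of motifs, so a match is a description only. The motifs were TTCNNNGAA (STAT), AGGTCA (a single hexamer of nuclear receptor sites), TGANTCA (AP-1), CAAAGNNCA (HNF4) and TTATGTAA (D-box). Of all 32851 RefSeq windows, 7.02%, 14%, 6.75%, 5.49% and 0.819% held them, in the same order. The STAT motif was found in the window of Hsd3b1, starting 122 bases before the gene's start, and the HNF4 motif in that of Hsd3b5, from 44 bases before it. The Sult1e1 window held 1 nuclear receptor hexamer from 113 bases before the start. The AP-1 and D-box motifs were found in none of the 11 windows. The Sult1e1 window (chr5:87591612-87591861, minus strand) is shown because Sult1e1 alone of the 10 genes lay high in treated TMX-null liver, with the match in capitals.
Sult1e1: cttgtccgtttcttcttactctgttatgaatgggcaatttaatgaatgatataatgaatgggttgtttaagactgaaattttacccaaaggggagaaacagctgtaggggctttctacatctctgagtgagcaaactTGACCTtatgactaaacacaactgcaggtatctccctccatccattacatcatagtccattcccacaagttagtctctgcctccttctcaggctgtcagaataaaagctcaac
These letters say nothing of binding.

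Sult1e1 attaches sulfate to oestrogens and so inactivates them, and it is known as an inducible gene in liver. Its log2 ratios were -1.21 in treated wild-type, -0.81 in untreated TMX-null and 4.07 in treated TMX-null liver. Both livers below the reference differed from each other by 0.40, about the SD of a single probe (0.38 for that difference), whereas the treated TMX-null liver stood above all others. Sult1e1 was the ninth highest gene in treated TMX-null against untreated wild-type liver. The difference between the responses of the genotypes, 6.10, was the highest of all 10184 genes.

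The other sulfotransferases lay on the other side. Of the 6 other measured Sult genes, 6 were at least 2-fold lower and 0 higher in treated TMX-null against untreated wild-type liver, with a median of -2.56. Of all genes 13.3% were called lower and 13.5% higher in that comparison. Sult1a1, the phenol sulfotransferase, stood at 0.10 in treated wild-type, -0.30 in untreated TMX-null and -2.81 in treated TMX-null liver. Sult1b1, which acts on thyroid hormone, stood at -0.69, 0.25 and -2.89. Papss2, which makes the sulfate donor, stood at -0.52, -0.27 and -2.63, and its sister gene Papss1 at 0.21, 0.33 and 0.53. Sult1e1 thus lay high where its relatives and Papss2 lay low. Its distance to the median of the other Sult genes in that liver was 6.63 log2.

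Cyp17a1, which hydroxylates and cleaves the steroid side chain on the way to androgens, had log2 ratios of -2.58 in treated wild-type, -0.51 in untreated TMX-null and -3.03 in treated TMX-null liver. Both treated livers lay low, and they differed by -0.45, less than the SD of a single probe for that difference (0.59). Its responses to LPS/GalN were -2.58 in wild-type and -2.52 in TMX-null liver, which differ by 0.06. Cyp17a1 was the sixth lowest gene of all in treated wild-type liver. With the arrays scaled to the same spread, the difference between the treated livers turned to 1.56 and that between the responses to 2.36, so its order between the treated livers depended on that choice.

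Hsd11b1, which regenerates active glucocorticoid from its inert keto form, stood at -0.78 in treated wild-type, -0.48 in untreated TMX-null and -2.03 in treated TMX-null liver. It lay below the reference on every array. H6pd, which supplies its reduced cofactor in the endoplasmic reticulum, stood at 0.10, 0.33 and 0.60. The difference of Hsd11b1 between treated livers was -1.25, and with the arrays scaled to the same spread it was -0.22 and not called. Srd5a1, which reduces testosterone to dihydrotestosterone and also clears glucocorticoids, stood at 0.40, 0.58 and -1.52. It was the only one of the 10 genes above the reference in untreated TMX-null liver. The other reductases of its family, Srd5a2 and Srd5a3, stood at 0.36 and 0.65 in treated TMX-null liver, and Srd5a2 at -1.28 in untreated TMX-null liver.

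The first comparison asked how wild-type liver differed after LPS/GalN. Of the 10 genes, 1 was called higher (Hsd3b5) and 2 lower (Cyp17a1 and Sult1e1), where 2.81% of all genes were called higher and 1.76% lower (4.57% in either direction). The median over the 10 was 0.39, with 6 above 0, against 0.00 for all genes. The size of 6 of the 10 ratios exceeded the SD of a single probe. Set against untreated TMX-null liver in place of the reference, an alternative chosen after seeing the data, 3 genes were called higher (Hsd3b5 at 2.67, Hsd3b4 at 1.11 and Hsd3b1 at 1.02) and 1 lower (Cyp17a1 at -2.08), where 2.1% and 2% of all genes were called (4.1% in either direction). Sult1e1 stood at -0.40 in that comparison and was no longer called. Srd5a1 (-0.18) and Hsd3b2 (0.30), neither called before, lay there on the other side of 0.

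The next comparison set the untreated livers of the genotypes against each other. In untreated TMX-null against untreated wild-type liver 0 of the 10 genes were called, where 1.8% of all genes were called higher and 0.835% lower (2.63% in either direction), so a count of 0 says little about these genes. The size of 7 of the 10 ratios exceeded the SD of a single probe, and that of 0 exceeded 2 SD. With the arrays scaled to the same spread 2 genes were called lower, Sult1e1 (-1.29) and Hsd3b2 (-1.13), where 4.5% of all genes were. At 1.5-fold 4 genes were called lower, where 5.56% of all genes were. Sult1e1 (-0.81) and Hsd3b2 (-0.71) were the lowest and Srd5a1 (0.58) the highest. Of the 10 genes 9 lay below 0, with a median of -0.49 against 0.00 for all genes. The hepatocyte markers lay low beside them, with 17 of 18 below 0 and a median of -0.27, and none called. The 12 macrophage markers all lay above 0, with a median of 0.79 and 3 called higher (Vsig4, Cd5l and Marco). The part of both marker lists in these ratios was not tested.

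Treated TMX-null liver differed from both untreated livers in all 10 genes. Against untreated wild-type liver 9 were called lower and 1 higher, where 13.3% and 13.5% of all genes were called (26.8% in either direction), and the median was -3.06. Scaled to the same spread, Srd5a1 stood at -0.94 and was no longer called. Hepatocyte markers lay low in the same comparison, with 16 of 18 called lower and a median of -1.58. Of 12 macrophage markers 9 were called higher, with a median of 1.36, and of 7 monocyte and neutrophil markers 5 were called higher and 1 lower, with a median of 2.66. Against untreated TMX-null liver, where the reference cancels if every array carried the same reference RNA, 9 were again called lower and 1 higher, where 12.1% and 11.4% of all genes were called (23.5% in either direction). There 11 of the 18 hepatocyte markers were called lower (median -1.19), 4 of the 12 macrophage markers higher (median 0.44), and 5 of the 7 monocyte and neutrophil markers higher and 1 lower (median 3.38). The part of these markers in the ratios of the 10 genes was not tested. The comparisons of treated TMX-null with each untreated liver share the treated TMX-null array, so their likeness is no separate observation. Against untreated TMX-null liver, Hsd3b6 and Hsd3b3 stood at -4.37, Hsd3b4 at -4.06, Hsd3b1 at -3.67, Hsd3b2 at -2.38 and Hsd3b5 at -1.48. Srd5a1 stood at -2.09, Hsd11b1 at -1.55 and Sult1e1 at 4.88, the third highest of all genes. With the arrays scaled to the same spread, Hsd3b2 (-0.78), Hsd3b5 (-0.31) and Hsd11b1 (-0.50) were no longer called.

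After LPS/GalN, the TMX-null liver was set against the wild-type liver. The reference cancels from this comparison only if both arrays carried the same reference RNA. Of the 10 genes 8 were called lower and 1, Sult1e1, higher, where 10.6% and 9.63% of all genes were called (20.3% in either direction). Cyp17a1 was not called. Hsd3b3 (-5.30), Hsd3b4 (-5.17), Hsd3b6 (-5.13) and Hsd3b1 (-4.69) were among the 7 lowest of all genes, and Hsd3b5 stood at -4.15 and Hsd3b2 at -2.68. Scaled to the same spread, 2 genes were called higher and 7 lower, Cyp17a1 being the second higher one, where 4.39% and 5.35% of all genes were called. Hepatocyte markers lay low beside these genes, with 10 of 18 called lower, 0 higher and a median of -1.10, from Cyp2e1 (-2.93) upwards. In whole liver, fewer hepatocytes and less RNA per hepatocyte cannot be told apart, and their part in these ratios was not tested. The 6 Hsd3b copies, at -2.68 to -5.30, had a median of -4.91.

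The responses of the genotypes to LPS/GalN are plotted against each other. They share no Cy3 sample. The reference cancels from the TMX-null response if every array carried the same reference RNA, which the labels do not state. The difference of the responses was called lower for 7 of the 10 genes and higher for 1, where 11.6% and 9.81% of all genes were called (21.4% in either direction). Scaled to the same spread it was called lower for 6 and higher for 2, where 12.7% and 10.5% of all genes were called. Hsd3b2 (-0.23) was then no longer called and Cyp17a1 was added. For 7 of the 10 genes the responses had opposite signs. The share of all genes with opposite signs was not counted, so this number cannot be set against it. Hsd3b1, Hsd3b3, Hsd3b4, Hsd3b5, Hsd3b6 and Srd5a1 lay above 0 in wild-type and below 0 in TMX-null liver, and Sult1e1 the other way. For Hsd3b1, Hsd3b6 and Srd5a1 the wild-type value was smaller than the SD of a single probe (0.42). Cyp17a1, Hsd11b1 and Hsd3b2 lay below 0 in both genotypes.

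**Figure D3:**
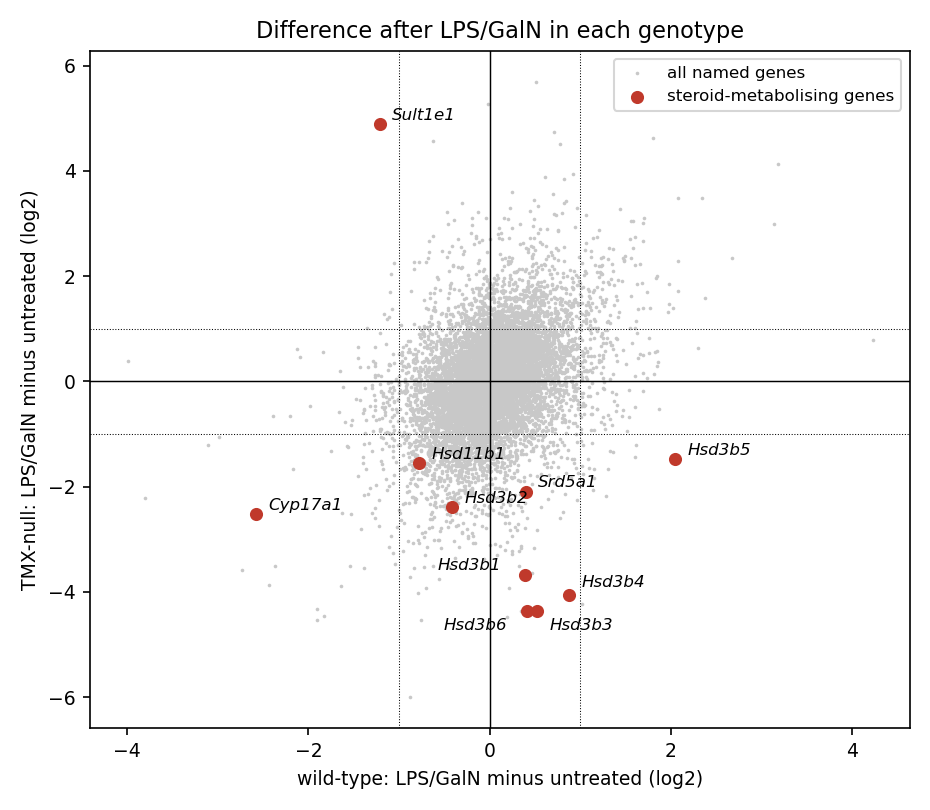
Log2 difference between LPS/GalN-treated and untreated liver in wild-type (horizontal axis) and TMX-null mice (vertical axis), from single arrays; grey points are all 10184 named genes, red points the 10 steroid-metabolising genes, and dotted lines mark 2-fold. Sult1e1 lies at the upper left (-1.21 and 4.88), Hsd3b5 at the lower right (2.04 and -1.48) and Cyp17a1 at the lower left (-2.58 and -2.52).

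Genes with the most similar values over the 3 arrays were sought by Euclidean distance of the log2 ratios. Nearest to Sult1e1 were Pdlim7 (distance 0.934), Hmga1 (1.45), Cxcl10 (1.63), Csf3r (1.69) and Ccl3 (1.69). Pdlim7 stood at -0.62 in treated wild-type, -1.14 in untreated TMX-null and 3.43 in treated TMX-null liver. Nearest to the mean of the 6 Hsd3b copies were Gm867 (0.260), Hsd3b1 (0.505), Hsd3b4 (0.544), Olfr1202 (0.598) and Fasn (0.600), of which 2 are copies themselves. With 3 arrays, likeness of this kind is a description of single values.

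Other steroid-metabolising genes were taken from lists of known genes, drawn up with earlier results of these data known. They are given for TMX-null against wild-type liver after LPS/GalN, where 10.6% of all genes were called lower and 9.63% higher and the median of all genes was 0.01. Of 20 measured dehydrogenases and reductases of 27 listed, 9 were called lower and 2 higher, with a median of -0.77. The share called higher was near that of all genes. Akr1d1, the 5-beta-reductase of steroids and bile acids, stood at -3.73, Akr1c6, a 17-beta-hydroxysteroid dehydrogenase of liver, at -3.27 and Akr1c14, a 3-alpha-hydroxysteroid dehydrogenase, at -2.98. Akr1c18, which inactivates progesterone, stood at 3.10 and Hsd17b11 at 1.16. Akr1c18 had log2 ratios of 0.24, -0.26 and 3.34 on the 3 arrays. It lay high in the same liver as Sult1e1.

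Of 9 measured steroid P450 genes and electron donors of 16 listed, 6 were called lower and 0 higher, with a median of -1.34. Cyp7b1, which hydroxylates oxysterols and androgens, stood at -3.26, Cyp3a11 at -2.60 and Cyp2c29 at -2.35. Of 9 measured genes of sulfation of 21 listed, 6 were called lower and 0 higher, with a median of -1.79. Of 10 measured genes of glucuronidation of 19 listed, 9 were called lower and 0 higher, with a median of -2.45. Ugt2b37 stood at -3.33, Ugt2b1 at -2.86 and Ugt2b38 at -2.48. Ugdh, which makes the sugar donor, differed by 0.12, and it lay above untreated wild-type liver in both treated livers (1.06 in wild-type and 1.18 in TMX-null). Ugt2b37 stood at 1.28 in treated wild-type and at -2.04 in treated TMX-null liver, on the same sides as Hsd3b5.

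Receptors carry the hormone signal into gene activity. Of 17 measured receptors and cofactors of 23 listed, 4 were called lower and 0 higher between the treated livers, with a median of -0.35. Nr0b2, the repressor SHP of bile acid synthesis, stood at -2.27, Nr1i2, the pregnane X receptor, at -1.45 and Rxra, the shared partner of nuclear receptors, at -1.34. Esr1, the oestrogen receptor, stood at -0.56 in treated wild-type, -0.45 in untreated TMX-null and -0.06 in treated TMX-null liver.

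**Figure D4:**
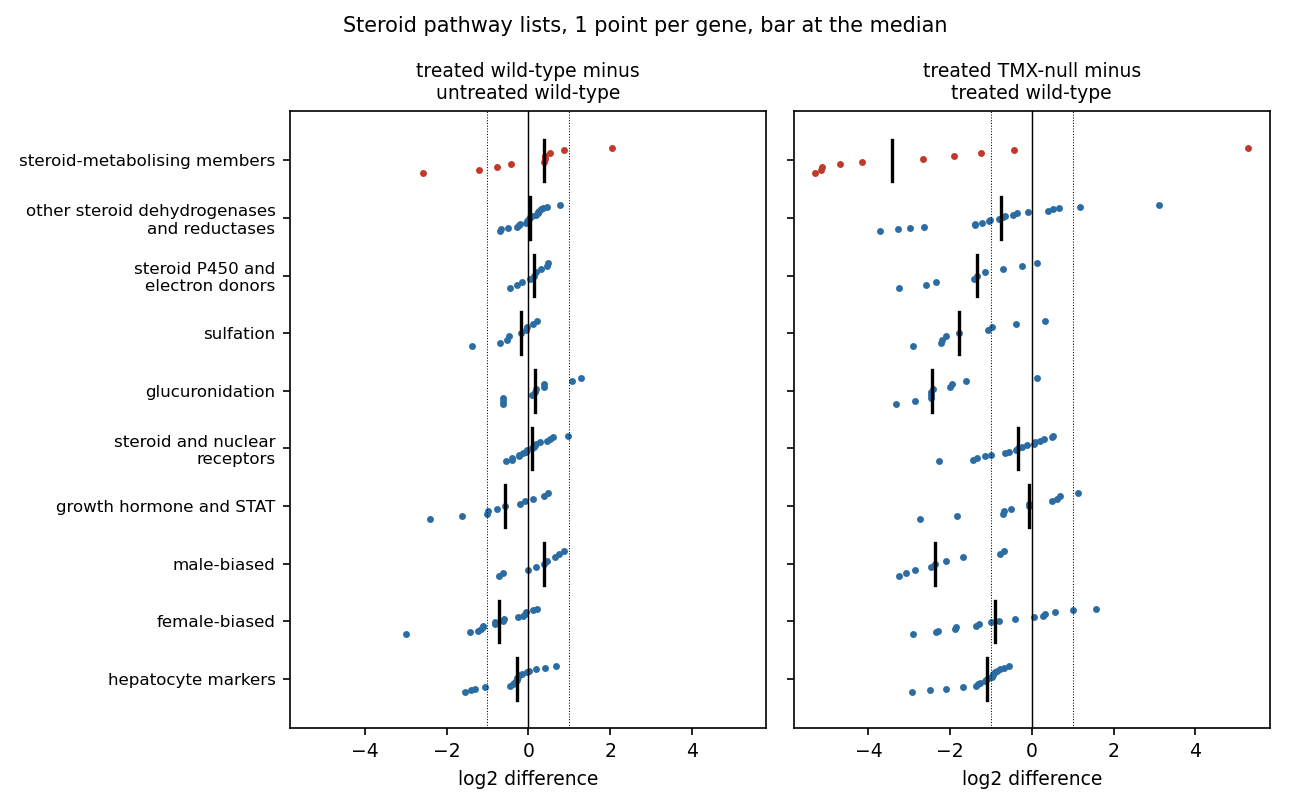
Log2 differences (horizontal axes) of the genes of each list, 1 point per gene with a bar at the median, for treated against untreated wild-type liver (left) and for TMX-null minus wild-type liver after LPS/GalN (right); dotted lines mark 2-fold, and each value comes from single arrays. On the right the medians are -3.42 for the 10 genes, -2.45 for glucuronidation and -0.35 for receptors, and Sult1e1 is the red point at 5.29.

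Sex-biased liver genes were examined because Hsd3b5 is known as a male-biased gene. In treated against untreated wild-type liver 0 of 9 measured male-biased genes of 22 listed were called, with 7 above 0 and a median of 0.39, where 2.81% of all genes were called higher and 1.76% lower. In the same comparison 6 of 16 measured female-biased genes of 26 listed were called lower and 0 higher, with a median of -0.72. Between the treated livers, where 10.6% of all genes were called lower and 9.63% higher, 7 of the 9 male-biased genes were called lower. Their median was -2.37, and Cyp7b1, Nudt7 (-3.09) and Ugt2b1 were the lowest. Of the 16 female-biased genes 7 were called lower and 2 higher there, with a median of -0.90. Sult1a1 (-2.91), Cyp3a16 (-2.36) and Cyp3a44 (-2.30) were the lowest, and Acot3 (1.58) and Prom1 (1.02) the higher ones. Cyp7b1, Ugt2b1, Ugt2b38 and Sult1a1 also stand in the lists of enzymes above.

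Of 11 measured genes of the growth hormone and STAT axis of 13 listed, 3 were called lower and 0 higher in treated against untreated wild-type liver (1.76% and 2.81% of all genes), with a median of -0.56. Cish and Socs2, feedback inhibitors induced by STAT5, stood at -2.40 and -1.63, and the liver transcription factor Onecut1 at -1.01. Cish was also called lower in untreated TMX-null liver (-1.05). Set against that liver, treated wild-type liver stood at -1.35 for Cish, -1.78 for Socs2 and -1.35 for Onecut1. Between the treated livers 2 of the 11 genes were called lower and 1 higher (10.6% and 9.63% of all genes), counts too small to say much about the list. Ghr, the growth hormone receptor, stood at -2.74 and Igfals at -1.84, while Igfbp3 stood at 1.13. Ghr had log2 ratios of -0.20 in treated wild-type, -0.45 in untreated and -2.94 in treated TMX-null liver.

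Markers of other cells also differed between these livers, and their part in the ratios of the 10 genes was not tested. Of 12 measured macrophage markers of 14 listed, 9 were called higher in treated wild-type liver (median 1.19), where 2.81% of all genes were. Between the treated livers 1 was called higher (median 0.16), a share near the 9.63% of all genes. Of 7 measured monocyte and neutrophil markers of 13 listed, 5 were called higher and 1 lower between the treated livers, with a median of 2.64. Of 10 measured endothelial and stellate markers 3 were called higher there, and of 5 cholangiocyte markers 1. Of 14 listed markers of adrenal cortex and gonads 2 had a value on all 3 arrays. Cyp11a1, the side-chain cleavage enzyme that starts steroid synthesis, stood at 0.45, -0.14 and -0.69, and Scarb1, which the liver also expresses, at -0.29, -0.28 and -0.88. Star, the mitochondrial cholesterol carrier of steroid-making cells, had a value on the treated wild-type array alone, at 2.70. A further 8 of the 14 had no value on any array. Of these, Mc2r, Nr5a1 and Inha had a row that was blank on every array. Cyp11b1, Cyp19a1, Akr1b7, Lhcgr and Insl3 had no named row, so they could not be looked up.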

How the data were processed

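Each of the 3 samples is an array with 2 channels. The authors deposited 1 table of signed log ratios, read here as log2; the base, numerator, image analysis, background correction, normalization and the reason for blanks were not given in the sources used here. Of 23473 rows, 16631 had 1 symbol in GEO's platform annotation and 6842 none. Symbols were updated through RefSeq synonyms (GRCm38.p6): 12622 were current, 3947 were renamed and 62 kept. Several probes of the same gene, the case for 86 genes, were averaged, 10184 genes with a value on all 3 arrays were kept, and each array was centred on its median over them.

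Comparisons were single ratios or differences of ratios, called at 2-fold, with no test and no replicates. The members and lists were chosen with earlier results of these data known. All 10 members were named, with the 3 highest and 3 lowest called genes of each list of pathway genes between the treated livers and the 5 nearest genes; other list genes were named after their values were seen. The calculation was run on simulated data with known differences and the same noise on every array. That run checks the calculation alone and says nothing about how firm the results are. Local alignments scored 1 for a match and -1 for a mismatch, with -3 to open and -1 to extend a gap. Python 3.11.15, pandas 2.3.3, numpy 2.4.6 and Biopython 1.88 were used. Alternatives were the centring, the spread, the genes kept, the names, the probe rule, the base, the threshold and the Hsd3b copies as 1 feature. The number of arrays limits the precision.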

Additional observations from a re-analysis of the deposited data

Results flagged for a closer look

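For 7 of the 10 genes the difference after LPS/GalN had opposite signs in the 2 genotypes, each from 1 array per group, and the difference between the genotypes was not tested. It was -4.06 log2 for Hsd3b1, -4.89 for Hsd3b3, -4.94 for Hsd3b4, -3.53 for Hsd3b5, -4.78 for Hsd3b6 and -2.49 for Srd5a1. All of these genes lay above 0 after treatment in wild-type and below 0 in TMX-null liver. For Sult1e1 the difference between the genotypes was 6.10, with -1.21 in wild-type and 4.88 in TMX-null liver. The SD of a single probe for this difference was 0.65. The wild-type ratios of Hsd3b1 (0.39), Hsd3b6 (0.41) and Srd5a1 (0.40) were smaller than the SD of a single probe there (0.42), so their signs are uncertain. Against untreated TMX-null liver, treated wild-type liver stood at -0.18 for Srd5a1. The share of all genes with opposite signs was not counted.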

How the results depend on the processing

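Of 370 recomputed log2 ratios of the 10 genes, 289 moved by less than the SD of a single probe, 81 moved by more and 0 called ratios changed sign. Leaving out the centring, keeping every gene with the values needed, keeping the annotation's names and taking the probe nearest to 0 moved none of these ratios by more than that SD and no count of called genes. This was nearly fixed in advance. Each of the 10 genes has 1 row and a value on every array, so these choices reach it only through the median of an array. Reading the values as natural logarithms cannot change a sign. The many unmoved ratios therefore say little about how firm the results are. With the arrays scaled to the same spread, 5 of the 10 genes were called in treated against untreated wild-type liver, in place of 3, and 2 in untreated TMX-null against untreated wild-type liver, in place of 0. Calls over all genes rose too, to 5.88% higher and 4.21% lower in the former and 5.94% and 4.5% in the latter. Reading the values as natural logarithms also gave 5 and 2, and raises every fold to the power 1.44. Of all genes, 7.14% were then called higher and 5.25% lower in the former comparison, and 4.81% and 3.43% in the latter. At 1.5-fold the counts were 5 and 4, where 9.84% and 7.03% of all genes were called higher and 8.16% and 5.56% lower. Counting the Hsd3b copies as 1 feature left 5 features, of which 5 were called in treated TMX-null against either untreated liver, 4 between the treated livers and 3 in the difference of the responses, in place of 10, 10, 9 and 8 genes; this alternative has fewer features by construction. Untreated TMX-null liver in place of the reference gave 4 called genes in wild-type liver. Uncalled differences that changed sign with equal spreads were Cyp17a1 between the treated livers (1.56) and Hsd11b1 in the difference of the responses (0.53, from -0.78); the cause was not tested. No paired analysis was possible because each group has 1 array, and for the same reason no replicate could be left out. Signal over background is unknown.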
